A study of Mus musculus with 8 samples.

Results

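The regions described here are CpG-dense 1 kb tiles of the mouse genome that carry methylation. DNA methylation was measured by reduced representation bisulfite sequencing (RRBS), which reads restriction fragments rich in CpG after bisulfite treatment, in embryonic stem cells (ESCs) of strain 129/SvP. All groups share 1 medium, with serum (FBS) and the self-renewal factor LIF, and were plated sparsely. The 8 groups are vitamin C (500 µM) with L-proline (1 mM), vitamin C alone, L-proline alone and no supplement, each on day 2 and on day 5, with 1 library per group. The labels name no culture, clone or batch, so no group has a replicate, and the spread given below is that between 4 matched pairs of libraries, which may be technical. Whether both days of 1 treatment were sampled from the same dish is not given, so the 4 pairs, and the tests built on the 8 libraries, may not be independent.

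Each chromosome from 1 to 19 was divided into tiles of 1000 bases. A tile's level is the share of methylated reads over its CpGs with at least 10 reads in all 8 libraries. The tiles described are those with at least 11 such CpGs and a mean level over the 8 libraries of at least 20%. There are 524 of them, among 14419 tiles of at least 11 covered CpGs and 84021 tiles in all. The mean level and the CpG number chose them, so neither is a finding. The lowest values inside the limit were 20.03% at chr9:54407001-54408000, 20.25% at chr6:81915001-81916000 and 20.3% at chr16:30308001-30309000. The highest values outside it were 19.95% at chr8:74184001-74185000, 19.95% at chr11:115967001-115968000 and 19.9% at chr1:75489001-75490000. Tile positions are in build mm9, the build of the deposited files, and gene starts were placed in those files by the spacing of CpGs in RefSeq promoter sequences.

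Most CpG-dense DNA in mammals lies in CpG islands, which cover many gene starts and are usually free of methylation. Known exceptions are the control regions of imprinted genes, where 1 parental copy is methylated, and the promoters of germline genes, which are methylated in somatic cells and silent there. Methyl groups are written by the DNMT enzymes and oxidised by the TET enzymes, for which vitamin C serves as a cofactor. L-proline is known to push mouse ESCs towards an early mesenchymal-like state. Bisulfite sequencing reads 5-methylcytosine and 5-hydroxymethylcytosine alike, so a level below is the sum of both. In bulk DNA a partial level can be a share of cells or of alleles, which these data do not separate.

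The gene starts that lie in these tiles show what dense methylated DNA looks like. The 250 bases before the start are printed for 6 of them, 5′ to 3′ on the gene's strand, from the RefSeq table of build GRCm38.p6, whose coordinates are not those of mm9. Capitals mark the CpGs covered in all 8 libraries, and lower-case CpGs were not covered. Hormad1, Slc25a31 and Rpl39l are shown as genes of the germline or testis, Amn as a gene of epithelia, Clcn4 as a start that changed little, and Rgcc as a start whose methylated CpGs lie elsewhere in its tile.
Hormad1, chr3:95559427-95559676, plus strand: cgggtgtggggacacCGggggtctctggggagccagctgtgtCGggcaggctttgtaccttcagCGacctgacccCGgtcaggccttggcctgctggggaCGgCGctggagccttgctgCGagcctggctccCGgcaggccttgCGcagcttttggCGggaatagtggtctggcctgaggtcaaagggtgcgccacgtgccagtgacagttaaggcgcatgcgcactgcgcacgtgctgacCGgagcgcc
Slc25a31, chr3:40708621-40708870, plus strand: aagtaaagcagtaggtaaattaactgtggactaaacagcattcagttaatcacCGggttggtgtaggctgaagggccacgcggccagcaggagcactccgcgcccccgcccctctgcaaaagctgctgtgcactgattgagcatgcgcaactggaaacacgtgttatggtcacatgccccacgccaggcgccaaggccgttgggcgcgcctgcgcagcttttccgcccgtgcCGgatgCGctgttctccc
Rpl39l, chr16:10169978-10170227, plus strand: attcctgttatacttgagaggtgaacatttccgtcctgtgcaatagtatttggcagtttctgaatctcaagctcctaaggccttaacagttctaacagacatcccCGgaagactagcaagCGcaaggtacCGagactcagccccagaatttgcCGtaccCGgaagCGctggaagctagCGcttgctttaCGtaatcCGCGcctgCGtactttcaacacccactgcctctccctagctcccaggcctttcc
Amn, chr12:111270846-111271095, plus strand: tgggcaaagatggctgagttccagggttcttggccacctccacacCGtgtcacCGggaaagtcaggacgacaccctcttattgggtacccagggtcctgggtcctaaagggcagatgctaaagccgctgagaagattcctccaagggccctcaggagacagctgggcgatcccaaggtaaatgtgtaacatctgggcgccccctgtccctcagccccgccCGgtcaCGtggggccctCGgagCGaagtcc
Clcn4, chr7:7299558-7299807, minus strand: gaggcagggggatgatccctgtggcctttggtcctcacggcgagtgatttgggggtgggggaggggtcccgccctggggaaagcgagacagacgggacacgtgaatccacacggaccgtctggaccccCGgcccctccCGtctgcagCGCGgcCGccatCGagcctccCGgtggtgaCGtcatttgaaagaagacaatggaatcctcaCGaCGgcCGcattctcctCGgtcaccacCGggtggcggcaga
Rgcc, chr14:79301636-79301885, minus strand: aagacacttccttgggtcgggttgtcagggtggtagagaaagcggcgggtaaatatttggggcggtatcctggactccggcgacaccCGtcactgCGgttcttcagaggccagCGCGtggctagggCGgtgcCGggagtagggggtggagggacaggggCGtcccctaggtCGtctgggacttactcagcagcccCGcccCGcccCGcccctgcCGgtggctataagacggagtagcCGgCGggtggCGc
The capitals show how much of each sequence the values below rest on. In the Hormad1 sequence 11 of 19 CpGs were covered, and their mean was 24.5% in the 4 libraries with vitamin C, against 48.9% in the 4 without. In the Rpl39l sequence 11 of 12 CpGs were covered, with 11.9% with vitamin C and 37.9% without. Only 3 of 18 CpGs were covered in the Slc25a31 sequence, so its tile speaks mostly for DNA outside these 250 bases. The 6 covered CpGs of the Amn sequence averaged 23.9% with vitamin C and 47.7% without. The 13 covered CpGs of the Clcn4 sequence averaged 50.6% with vitamin C and 53.1% without, the least separated of the 6. The 15 covered CpGs of the Rgcc sequence averaged 1.30% with vitamin C and 7.75% without, far under the 24.4% of its tile as a whole.

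The deposited coverage sets the precision of these levels. The median coverage of a CpG counted in all libraries was 27 to 56 reads. The library with the fewest reads gave a tile at least 141 reads, with a median of 324. The labels name no molecular identifiers, so PCR copies of 1 molecule may count several times. Reads on the contig named lambda were 0.195% to 0.513% methylated in the 8 libraries.

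The tiles were only just dense, and they ranged from partial to nearly full methylation. Their CpG number ran from 11 to 50 with a median of 13, and 311 of the 524 held 11 to 13 CpGs. The 13895 equally defined tiles under 20% had a median of 23. By mean level, 232 tiles stood at 20 to 40%, 99 at 40 to 60%, 91 at 60 to 80% and 102 above that. A level of at least 20% in every one of the 8 libraries was kept by 334 tiles, and a level of at least 80% in every library by 43.

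Partial methylation was spread over CpGs more than it was split between full and empty ones. Of the 7518 CpGs in the tiles, 15.4% had a mean under 20%, 62.9% stood between 20 and 80% and 21.7% at 80% or more. In 77 tiles every CpG stood between 20 and 80%, and in 36 every CpG was at 80% or more. Only 37 tiles held both a CpG under 20% and a CpG at 80% or more, and the other 374 mixed neighbouring ranges. The median SD between the CpGs of a tile was 11.9 percentage points.

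The tiles with the most CpGs were led by an imprinted locus. The tile at chr11:11926001-11927000 in the span of Grb10, an adaptor of growth factor receptors, held 50 covered CpGs at a mean of 32.8%. The tile at chr1:93241001-93242000, 46086 bases from the placed start of Scly, held 49. The next were chr10:80297001-80298000 in the span of Lingo3 with 39, chr10:80616001-80617000 downstream of Zbtb7a with 36 and chr10:12810001-12811000 at the start of Plagl1 with 35. All 5 lay between 32.8% and 41.9%. The 5 tiles with the highest levels, from 93.8% to 94.4%, each had 11 CpGs, and 4 of them lay over 80 kb from any placed start.

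A smaller share of the tiles held a placed gene start than of dense tiles under 20%, and a larger share than of sparser methylated tiles. The latter are tiles of 3 to 10 CpGs at 20% or more. A placed start lay in 20 of the 524 tiles, or 3.82%, against 38.4% of the dense tiles under 20% and 0.311% of the sparser ones. A placed start lay within 5 kb of 70 tiles, or 13.4%, against 56.4% and 5.78%. A start could be placed only where at least 6 of its CpGs were listed, so these shares also depend on CpG number. Its median was 13 in the tiles, 23 in the dense tiles under 20% and 4 in the sparser ones. Of all 524, 228 were over 50 kb from any placed start, and 179 tiles lay in the span of a placed gene. The shares are lower bounds, since 7444 genes could be placed, and none on chromosome 18. For the same reason the count over 50 kb and all distances to a placed start are upper bounds.

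Most of the tiles had no other of the 524 beside them. Only 191 had an adjacent tile with at least 3 covered CpGs, so for the rest coverage fixed a run of 1. The 524 formed 498 runs of 1 tile and 13 runs of 2 adjacent tiles, and none longer. Runs of other tiles were not counted. Among the pairs were both Gnas tiles at chr2:174124001-174126000, both Grb10 tiles at chr11:11925001-11927000 and tiles in the spans of Etv3, Ethe1 and Scaf1. Of the 191 tiles with a covered neighbour, 68.6% had neighbours averaging at least 20%, against 4.76% among dense tiles under 20% and 72.4% among the sparser methylated tiles. The median level of these neighbours was 36.8%. The share of dense tiles that carried methylation was highest on chromosome 10, with 45 of 735 or 6.12%, and lowest on chromosome 18, with 4 of 405 or 0.988%. The last 3 Mb covered of each chromosome held 3.05% of the tiles, against 3.67% of the dense tiles under 20%, so the tiles were not gathered there.

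Across the 8 libraries the mean level of the tiles followed vitamin C and L-proline. On day 2 it was 47.0% with both supplements, 42.3% with vitamin C, 57.9% with L-proline and 50.1% untreated. On day 5 it was 46.1% with both, 39.6% with vitamin C, 68.8% with L-proline and 58.9% untreated. The vitamin C libraries were the lowest on each day and the L-proline libraries the highest. At the low end, 140 tiles were under 20% with vitamin C on day 2 and 171 on day 5, against 40 and 5 untreated. With L-proline alone, 0 and 1 tiles were under 20%.

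**Figure D1:**
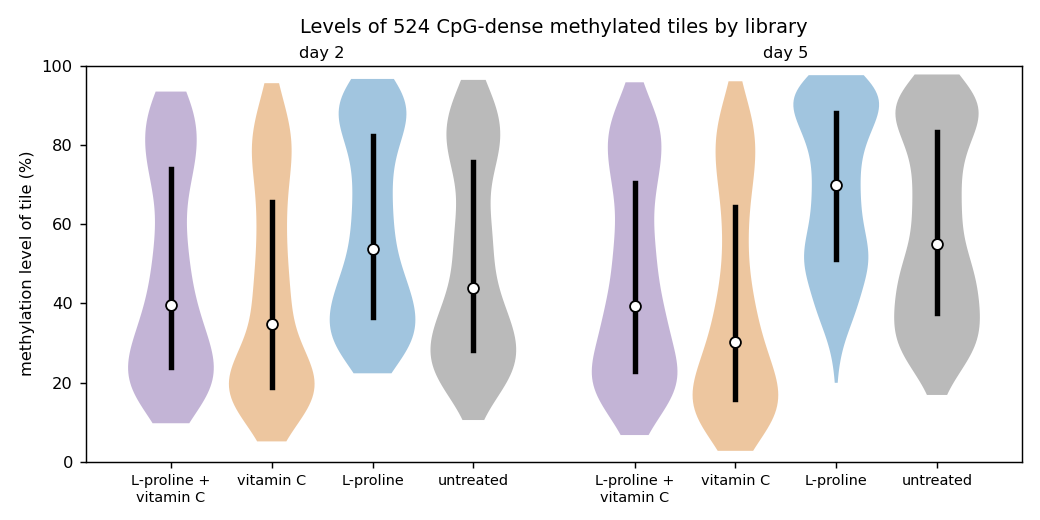
Methylation level in percent of the 524 tiles in each of the 8 libraries, grouped by day, as violins with the median as a white point and the interquartile range as a black bar. The medians run from 30.2% with vitamin C on day 5 to 69.8% with L-proline on day 5.

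Methylation in these tiles was lower with vitamin C. The mean over the tiles differed by -7.85 percentage points between vitamin C and untreated on day 2, and by -10.9 between both supplements and L-proline alone. On day 5 the same differences were -19.3 and -22.7. The mean of the 4 was -15.2 ± 6.98 (SD, n = 4 pairs). The mean level that chose the tiles weights both sides of each pair equally, so it limits the size of a difference and not its direction. In 442 tiles the level was lower with vitamin C in all 4 pairs, where 49.1% of all 50167 tiles tested were, and in 0 tiles was it higher in all 4, where 1.25% were.

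Single tiles were tested with limma on log2(methylated / unmethylated reads) over all 50167 tiles of at least 3 CpGs. A call needed an adjusted p (Benjamini-Hochberg) under 0.05 together with a mean difference of at least 10 points. With vitamin C, 274 of the 524 tiles, or 52.3%, were called lower, where 23.2% of all tiles were. None was called higher, where 0% of all tiles were. With the raw p under 0.05 as the limit, 386 were lower, where 47.7% of all tiles were, and 0 were higher, where 0.588% were. Many of the tiles tested stand too low to fall by 10 points, so the nearer comparison is the sparser methylated tiles, of which 38.7% were called lower. Of the dense tiles under 20%, 1.91% were called.

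The count rests on single libraries and on the scale. It was 46 without the untreated library of day 5, 49 without the one with both supplements of day 5, 57 without vitamin C of day 5, 92 without L-proline of day 5 and 150 without both supplements of day 2. The share of all tiles called without these libraries was not computed, so whether the drop is particular to the 524 tiles is not known. A quasi-binomial fit called 61, where 4.11% of all tiles were called. With vitamin C the median tile of a library stood 1.45 lower on the log2 scale, a shift of -1.45, and the median of the 524 tiles moved by -1.15. Relative to that shift 145 tiles were lower and 379 (72.3%) higher, where 75.8% of all tiles were higher. With limma's adjusted p under 0.05 as the limit and no minimum difference, 1 tile was lower, where 0.466% of all tiles were, and 11 (2.1%) were higher, where 12.9% of all tiles were. On the log2 scale most of the tiles therefore fell by less than the library medians did, as most of all tiles did, while their differences in percentage points stand as given.

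**Figure D2:**
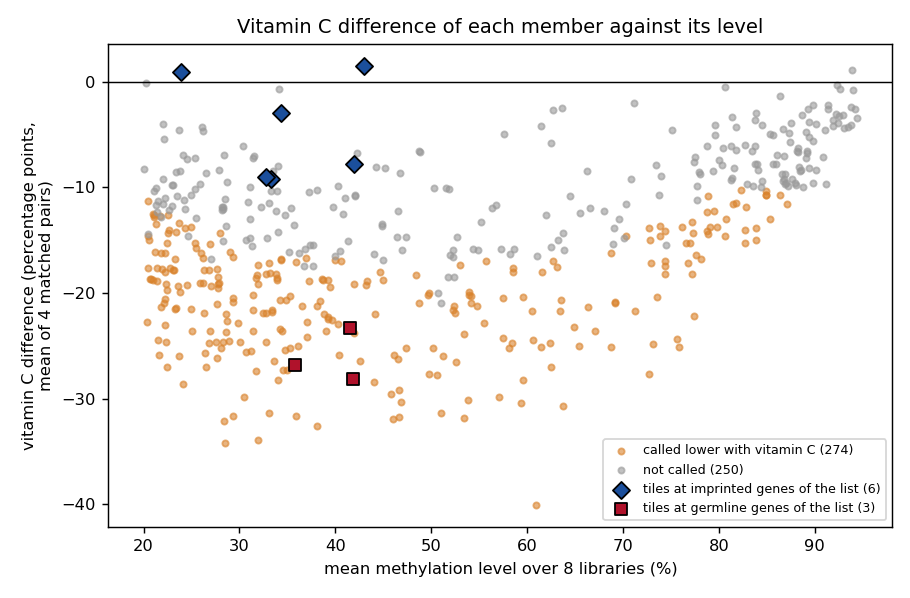
Vitamin C difference in percentage points (mean of 4 matched pairs, with minus without) of each of the 524 tiles against its mean level in percent over the 8 libraries. Orange points mark the 274 tiles called lower, blue diamonds 6 tiles at imprinted genes between -9.21 and 1.49, and red squares 3 tiles at germline genes between -28.1 and -23.3.

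By pair, 193 tiles (36.8%) were lower by at least 10 points with vitamin C than untreated on day 2, where 18.8% of all tiles were. With both supplements against L-proline alone on day 2 they were 272 (51.9%), where 22.8% were. On day 5 they were 426 (81.3%) for vitamin C against untreated, where 37.2% were, and 439 (83.8%) for both against L-proline alone, where 42.2% were.

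At equal level the vitamin C differences of the tiles lay within a few points of those of sparser tiles, and the gaps changed with the read minimum. Level limits how far a tile can fall, so tiles were set beside those of 3 to 10 CpGs in the same class of mean level. At 20 to 40% the difference was -17.1 ± 8.07 points, against -19.6 ± 10.3 in the sparser tiles. At 40 to 60% it was -19.03 ± 9.44, against -18.8 ± 8.43. At 60 to 80% it was -15.3 ± 6.66, against -14.5 ± 5.84, and at 80 to 100% it was -6.94 ± 2.77, against -7.89 ± 2.86 (SD, n = 4 pairs each). Taken pair by pair, dense minus sparser was 2.46 ± 2.31, -0.23 ± 1.20, -0.83 ± 1.01 and 0.95 ± 0.22 points from the lowest class to the highest. At 20 to 40% and at 80 to 100% the dense tiles fell by less in each of the 4 pairs, and in the middle classes the gap was within its spread. With a minimum of 20 reads, which leaves 84 tiles, the gaps were 4.19 ± 2.99, 4.91 ± 3.50, 1.02 ± 1.19 and 0.49 ± 0.79 points, so the middle classes turned in sign and the highest class was within its spread. The share called was 64.2% against 65%, 56.6% against 47.8%, 58.2% against 45.5% and 15.7% against 25.2% in the 4 level classes, at a median of 287.5 to 352.5 reads in the lowest library for the dense tiles against 71 to 89 for the sparser ones.

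**Figure D3:**
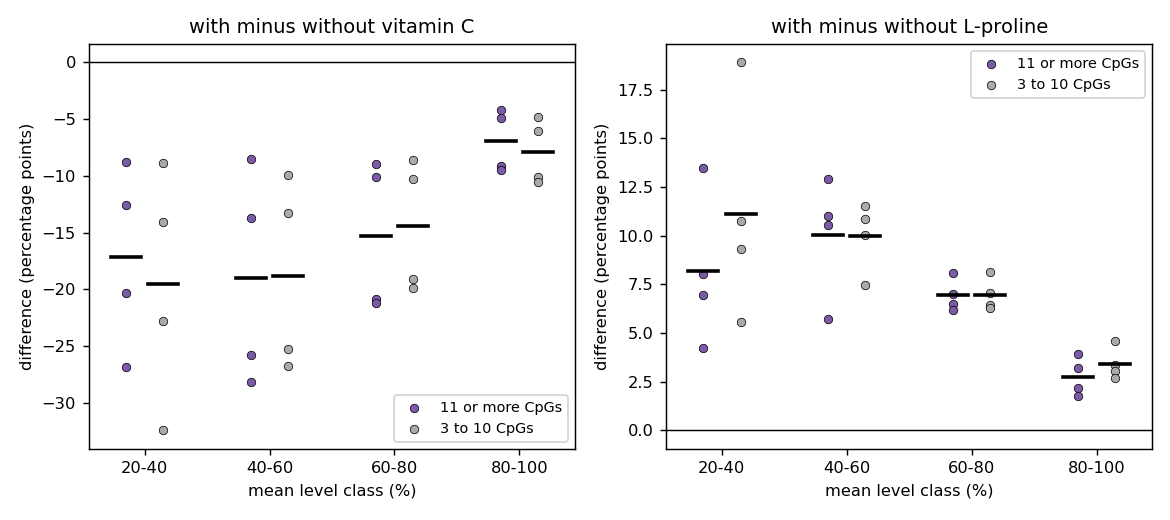
Matched differences in percentage points for vitamin C (left) and L-proline (right) in 4 classes of mean level, for the 524 tiles (violet) and for tiles of 3 to 10 CpGs (grey). Each point is 1 of 4 pairs and each bar their mean; both kinds of tile fall least with vitamin C at 80 to 100%, by 6.94 and 7.89 points.

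The 6 largest vitamin C losses included a tile in the span of Six2 and a tile upstream of Foxf2. The tile at chr17:86080001-86081000, in the span of Six2 and 6594 bases from its start, stood at 58.2% with both supplements and 54.4% with vitamin C on day 2, against 81.5% with L-proline and 80.1% untreated. On day 5 it stood at 25.1% with both and 25.6% with vitamin C, against 89.3% with L-proline and 72.9% untreated. Six2 is a transcription factor of kidney progenitors. All 4 libraries with vitamin C lay under all 4 without, and the mean difference was -40.1 ± 19.3 points (limma adjusted p = 0.0107). The tile at chr13:31707001-31708000, 9685 bases upstream of the start of Foxf2, a forkhead factor of mesenchyme, fell by 33.9 ± 14.8 points to a mean of 15.0% with vitamin C, against 48.9% without (limma adjusted p = 0.0106).

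The other 4 of the 6 largest losses were far from placed starts. The tile at chr11:103195001-103196000, 66286 bases from the start of Map3k14, averaged 11.4% with vitamin C and 45.6% without. The tile at chr8:87225001-87226000 averaged 21.8% with vitamin C and 54.4% without. The tiles at chr17:9862001-9863000 and chr7:35538001-35539000 differed by -32.1 ± 15.7 and -31.9 ± 16.0 points. In all 6 the limma adjusted p was between 0.0106 and 0.0137, and the libraries with vitamin C lay under those without in every tile except chr7:35538001-35539000. Only the Map3k14 tile was called in the quasi-binomial fit and relative to the shift of the library medians, where it differed by -1.26 on the log2 scale. The chr7:35538001-35539000 tile lost its call without the untreated library of day 5 (limma adjusted p = 0.0529).

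At the other end were tiles whose mean vitamin C difference was near 0. The 6 smallest mean differences ran from -0.809 to -0.0912 points. Of these tiles, 3 were at 92.3% to 94.01% and 1 at 80.7%, in the span of Tbc1d22a. The remaining ones were at intermediate level, chr6:58856001-58857000 at 34.1% and chr6:81915001-81916000 at 20.25%. In all 6 tiles the pairs differed in sign, so each mean averages rises and falls. At chr6:58856001-58857000 the pairs ran from -11.2 to 10.4 points. Among the 331 tiles at 20 to 60%, 10 lay within 5 points of 0, and 3 of those 10 were tiles at imprinted genes.

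Tiles at imprinted genes differed by less than 10 points with vitamin C. Of all 14419 dense tiles, 524 carried methylation, and the share of all placed genes with such a tile was not counted. Of 44 imprinted genes listed, 10 had a placed start. Of these, 9 had a dense tile in the gene or within 5 kb of it, and 5 had a methylated one. These were Gnas, the stimulatory G-protein alpha subunit, Grb10, Plagl1, a zinc-finger factor, and Zrsr1, a retrogene inside Commd1, with 6 tiles in all since the last pair share 1. None of the 6 was called for vitamin C, where 23.2% of all tiles were, and their differences ran from -9.21 to 1.49 points with a median level of 33.8%. At a raw p under 0.05, without adjustment, none of the 6 was lower either, where 47.7% of all tiles were. Relative to the shift of the library medians all 6 were higher with vitamin C, by 0.83 to 1.55 on the log2 scale, where 75.8% of all tiles were higher. At the left Gnas tile, the left Grb10 tile and the Commd1 tile the limma adjusted p of this was 0.0324, 0.0456 and 0.0372. Of all tiles, 12.9% were higher relative to the shift at an adjusted p under 0.05. In points these tiles differed by 1.49, -2.92 and 0.874, so the values give their place relative to the shift and not a gain.

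The tile at the start of Plagl1 held 35 CpGs, each between 31.7% and 54.8%. It stood at 39.98% with both supplements and 35.7% with vitamin C on day 2, against 49.6% with L-proline and 44.1% untreated. By day 5 it stood at 36.7% with both and 39.8% with vitamin C, against 48.7% with L-proline and 41.0% untreated. The libraries with vitamin C lay under the others by a narrow margin, and the mean difference was -7.82 ± 4.63 points (limma adjusted p = 0.311). The Zrsr1 and Commd1 tile at chr11:22872001-22873000 stood at 22.2% with both and 25.02% with vitamin C on day 2, against 22.3% with L-proline and 21.7% untreated. The day 5 levels were 19.01% with both and 31.2% with vitamin C, against 30.1% with L-proline and 19.8% untreated. Its groups overlapped, and the mean difference was 0.874 ± 9.35 points (limma adjusted p = 0.908). The neighbouring Gnas tiles differed by 1.49 ± 10.3 and -9.21 ± 4.39 points, and the Grb10 tiles by -2.92 ± 7.84 and -9.04 ± 6.49. The CpGs of the first Gnas tile lay between 40.2% and 51.5%, the narrowest range of the imprinted tiles.

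At germline genes the differences were larger. Of 29 listed, 12 had a placed start, 8 of these a dense tile and 3 a methylated one. The share of all placed genes with a methylated dense tile was not counted. All 3 were called lower with vitamin C, where 23.2% of all tiles were. Of the 331 dense methylated tiles at 20 to 60%, the range these 3 stand in, 61.9% were called. The list and the tiles were chosen with results of these data known, so the count describes these 3 tiles alone. Hormad1 codes for a protein of the meiotic chromosome axis. Its tile at chr3:95363001-95364000 stood at 25.1% with both supplements and 25.1% with vitamin C on day 2, against 50.1% with L-proline and 35.3% untreated. On day 5 it stood at 24.5% with both and 15.0% with vitamin C, against 64.1% with L-proline and 47.4% untreated. The groups did not overlap, and the mean difference was -26.8 ± 12.6 points (limma adjusted p = 0.0148).

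Slc25a31 codes for the ADP/ATP carrier of male germ cells. Its tile at chr3:40512001-40513000 averaged 29.9% with vitamin C and 53.2% without, a difference of -23.3 ± 10.4 points (limma adjusted p = 0.0209). Sohlh2 is a helix-loop-helix factor of early germ cells. Its tile at chr3:54986001-54987000 stood at 33.0% with both and 18.6% with vitamin C on day 2, against 57.7% with L-proline and 27.5% untreated. By day 5 it stood at 39.3% with both and 20.4% with vitamin C, against 73.9% with L-proline and 64.7% untreated. Here the groups overlapped, as both supplements exceeded untreated on day 2, and the mean difference was -28.1 ± 15.1 points (limma adjusted p = 0.0153). Relative to the shift of the library medians these 3 tiles differed by -0.31, 0.03 and -0.33 on the log2 scale (Hormad1, Slc25a31, Sohlh2), with no call. None of the 3 was called in the quasi-binomial fit, or in limma without the day 5 library of both supplements, of vitamin C or of no supplement, and without that of L-proline Slc25a31 lost its call. None of 7 placed genes of pluripotency and the methylation machinery had a methylated dense tile. Only 524 of all 14419 dense tiles were methylated, so this is no result about these genes.

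**Figure D4:**
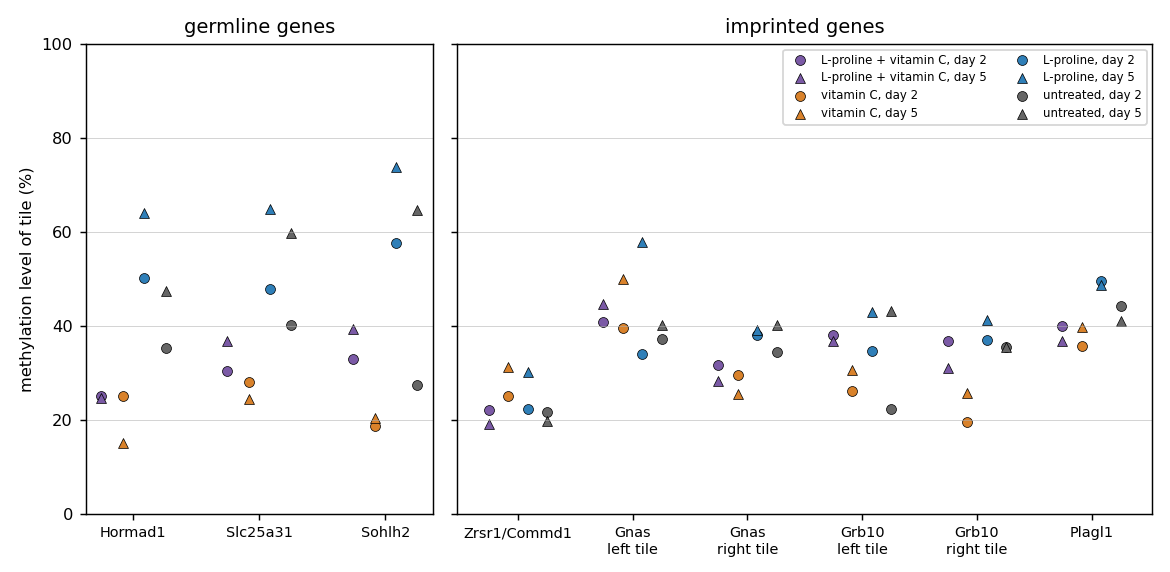
Methylation level in percent in each library of the 3 tiles at germline genes and the 6 at imprinted genes; colour gives the treatment, circles day 2 and triangles day 5. At Hormad1 and Slc25a31 all 4 libraries with vitamin C lie under all 4 without, and at the imprinted genes this holds for Plagl1 and the right Gnas tile, by narrower margins, and the other 4 tiles overlap.

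Of the 20 tiles that hold a gene start, 14 (70%) were called lower with vitamin C, where 23.2% of all tiles were. The median level of the 20 tiles was 26.0%. At a level of 20 to 40%, 64.2% of the dense tiles and 65% of the sparser ones were called. Of these 14 calls, 10 were lost in the quasi-binomial fit, all 14 relative to the shift of the library medians, and 2 to 11 when 1 library was left out, the most without the untreated library of day 5. The Rpl39l tile at chr16:10170001-10171000, at the start of a ribosomal protein gene used in testis, stood at 17.5% with both supplements and 17.9% with vitamin C on day 2, against 45.01% with L-proline and 31.8% untreated. On day 5 it stood at 16.9% with both and 5.99% with vitamin C, against 49.9% with L-proline and 36.3% untreated. The groups did not overlap, and the mean difference was -26.2 ± 8.44 points (limma adjusted p = 0.012). The tile at the start of Lhcgr, the receptor of luteinizing hormone, averaged 32.1% with vitamin C and 61.3% without, and the tile at Hoxd12, a homeobox gene of limb patterning, averaged 8.64% with vitamin C and 34.5% without.

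Smaller falls were called at Sycp2l, a gene of the oocyte's chromosome cores, at -13.4 points and at Alpk3, a kinase of heart muscle, at -16.2. The Amn tile, whose gene codes for a partner of cubilin in vitamin uptake, differed by -19.9 ± 5.21 points (limma adjusted p = 0.0136). At Sult2b1, a sulfotransferase of cholesterol, it was -20.9 points. Tmem59l, Miip, Gm36388, C130026L21Rik and Afap1l2 were also called, with -23.04, -16.8, -12.8, -21.9 and -12.5 points. Not called were Rgcc at -12.0 points (limma adjusted p = 0.0549), Cib2 at -8.25, Plagl1, the Zrsr1 and Commd1 tile, Clcn4 at -4.96 and Vmn2r29 at -4.10.

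The last 2 tiles were far deeper than the rest. Clcn4, a chloride/proton exchanger, had 312 reads per CpG, and Vmn2r29, one of the large family of vomeronasal receptors, had 252, against a median of 36.8 over the 524 tiles. How reads that match several copies were placed is not known here, so both levels are uncertain. In all, 7 tiles had over 100 reads per CpG. Their mean vitamin C difference was -7.57 points, and 1 of the 7 was called, where 23.2% of all tiles were.

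In the Rgcc tile the CpGs at 20% or more lay outside the printed sequence. Of its 33 CpGs, 21 were under 20% and the highest stood at 76.5%, while the covered CpGs in the printed sequence reached 12.95% at most. In the Cib2, Afap1l2 and Gm36388 tiles the CpGs ran from 0.888% or less to at least 78.4%. Where the high ones lie relative to the start was not examined in these tiles. The Plagl1 and Clcn4 tiles were even, with every CpG between 20 and 80%.

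Letters that known factors read were counted in the 300 bases around each start, on both strands. CACGTG, the E-box, stood in 7 of the 24 promoter sequences whose start lay in the tiles (29.2%), against 10.8% of the 8359 placed and 7.15% of all 32851. Those of Hormad1, Slc25a31, Amn and Clcn4 can be read in the sequences printed above. TCCCGC, the core of E2F sites, stood in 11 of 24 (45.8%), against 45.6% of those placed and 19.98% of all. TGCCGC, part of the imprint reader ZFP57's site, stood in 5 of 24 (20.8%), against 25.6% of those placed and 11.6% of all. Matches of different motifs may share bases, several sequences belong to 1 gene, and a match is a description of letters alone. The 24 sequences lie in 20 tiles, so those that share a tile are not separate cases. The sequences with CACGTG belong to Amn, Clcn4, Hormad1, Hymai, Plagl1 and Slc25a31.

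The mean level of the tiles was higher with L-proline in every pair, while no single tile was called. The mean over the tiles differed by 7.81 points between L-proline and untreated on day 2, and by 4.79 between both supplements and vitamin C alone. On day 5 the differences were 9.96 and 6.48. The mean of the 4 was 7.26 ± 2.18 (SD, n = 4 pairs). In 309 tiles the level was higher with L-proline in all 4 pairs, where 28.1% of all tiles were, and in 1 it was lower in all 4, where 1.61% were. Limma called 0 tiles higher, where 0% of all tiles were, and 0 lower, and the smallest adjusted p was 0.227. Without adjustment, at a raw p under 0.05, 74 tiles (14.1%) were higher, where 15.2% of all tiles were, and 0 lower, where 0.767% were. The quasi-binomial fit called 0 as well, where 0.0159% of all tiles were. On the log2 scale the median tile of a library shifted by 0.79 with L-proline. Relative to that shift 109 of the 524 tiles (20.8%) were higher, where 24.6% of all tiles were. The other 415 (79.2%) were lower, where 75.4% of all tiles were.

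By pair, 170 tiles (32.4%) were higher by at least 10 points with L-proline than untreated on day 2, where 16.9% of all tiles were, and 83 (15.8%) with both supplements against vitamin C alone, where 13.3% were. On day 5 they were 244 (46.6%) for L-proline against untreated, where 19.4% were, and 153 (29.2%) for both against vitamin C alone, where 17% were. At equal level the gain was 8.17 points at 20 to 40%, against 11.1 in sparser tiles, 10.04 against 9.97 at 40 to 60%, 6.95 against 6.97 at 60 to 80% and 2.76 against 3.42 at 80 to 100%.

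The 6 largest L-proline gains included 2 tiles in the span of Zbtb7a and a tile in that of Klf3. The tile at chr10:80607001-80608000, in the span of Zbtb7a and 7985 bases from its start, stood at 20.5% with both supplements and 25.3% with L-proline on day 2, against 11.6% with vitamin C and 12.01% untreated. By day 5 it stood at 37.7% with both and 52.8% with L-proline, against 12.8% with vitamin C and 20.1% untreated. Every library with L-proline was above every one without it, and the mean difference was 19.96 ± 10.8 points (limma adjusted p = 0.227). A second tile of Zbtb7a, chr10:80611001-80612000, differed by 21.3 ± 8.60 points, averaging 43.9% with L-proline and 22.7% without. Zbtb7a is a zinc-finger repressor with roles in blood cell differentiation. The tile at chr5:65213001-65214000 in the span of Klf3, a Krüppel-like repressor, averaged 57.6% with L-proline and 37.1% without.

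The other large gains were away from placed starts. The tile at chr5:123610001-123611000, 27363 bases upstream of the start of Rhof, averaged 53.7% with L-proline and 27.3% without, a difference of 26.4 ± 8.17 points (limma adjusted p = 0.227). The tiles at chr10:67559001-67560000 and chr7:73427001-73428000 differed by 21.3 ± 5.50 and 21.3 ± 6.90 points. The 1 tile lower with L-proline in all 4 pairs, chr3:59235001-59236000, averaged 78.96% with L-proline and 83.7% without.

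The mean over the tiles was not higher on day 5 than on day 2 with vitamin C, and was higher without it. Day 5 minus day 2 was -2.64 points with vitamin C and -0.958 with both supplements, against 8.76 untreated and 10.9 with L-proline. These 4 averaged 4.02 ± 6.81 (SD, n = 4 pairs). With vitamin C, 70 tiles (13.4%) were lower on day 5 by at least 10 points, where 10.7% of all tiles were. With both supplements 29 (5.53%) were, where 7.6% of all tiles were. Of the sparser methylated tiles (3 to 10 CpGs), 20.5% were lower with vitamin C and 14.7% with both. By the same margin 217 tiles (41.4%) were higher on day 5 untreated, where 18.4% of all tiles were. With L-proline 258 (49.2%) were, where 19.1% of all tiles were. Of the sparser methylated tiles, 33.1% were higher untreated and 27.9% with L-proline. In all 4 treatments 84 tiles were higher on day 5, where 11.2% of all tiles were, and 6 lower, where 2.55% were.

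Day was not called in any tile, where 0% of all tiles were (limma, smallest adjusted p 0.590), and at a raw p under 0.05, 25 were higher, where 6.56% were, and 0 lower, where 0.973% were. The vitamin C difference on day 5 minus that on day 2 was -11.4 points without L-proline and -11.9 with it. A vitamin C by day term tested this tile by tile and called 0 tiles, where 0% of all tiles were (limma, smallest adjusted p 0.386). At a raw p under 0.05 it gave 48 tiles (9.16%) with a larger fall on day 5, where 11.3% of all tiles were, and 0 the other way, where 1.03% were. A vitamin C by L-proline term called 0 tiles (limma), with 0 at a raw p under 0.05 in either direction, where 2.73% of all tiles were below and 0.933% above. The quasi-binomial fit called 0 tiles for day, where 0.00997% of all tiles were, and 0 for both terms.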

How the data were processed

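RRBS libraries of 8 groups of mouse ESCs were analysed. The submitters' processing notes name CASAVA, BSMAP 2.88 and mm9, without roles or settings. The authors deposited for each CpG the fraction of reads methylated, from 0 to 1, and its coverage in reads, with a minimum of 10. Their handling of duplicate reads, multiple matches and incomplete conversion is not given in the sources here. Methylated reads were taken as the fraction times the coverage.

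CpGs with at least 10 reads in all 8 libraries (622768 of them) were summed over tiles of 1000 bases. For all 50167 tiles of at least 3 CpGs, sex chromosomes included, limma 3.58.1 under R 4.3.3 fitted log2((methylated + 1) / (unmethylated + 1)) reads. The additive terms were day, vitamin C and L-proline, leaving 4 residual degrees of freedom, or 3 with an interaction. The fit assumes equal spread in all groups. P-values were adjusted by Benjamini-Hochberg over all tiles. Means over the tiles carry no test, and comparisons by vitamin C or L-proline share libraries. The fits were tested on simulated data.

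RefSeq promoter sequences (GRCm38.p6) were placed in the mm9 files by matching the spacing of their CpGs with that of the listed CpGs. Of 32851 sequences, 15982 had enough CpGs and 6935 had 1 position, of which 6925 lay on the chromosome the table gives. Mirrored sequences, which have no true position, were placed 51 times. A second pass between placed neighbours gave 1455 more and 9 mirrored ones. In all 8359 promoters of 7444 genes were placed. A gene span here runs from the placed start over the table's gene length.

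The tiles, gene lists and tests were chosen with earlier results of these data known. Tiles named are the 5 of highest level, the 3 on either side of the 20% limit, the 5 with most CpGs, the longest runs, the 6 largest vitamin C losses and the 6 smallest differences, the 6 largest L-proline gains and the largest L-proline losses, of which there was 1 (losses and gains among tiles with 1 sign in all 4 pairs), and those at listed genes. The tiles holding a gene start were all named after their values were seen. Alternatives are a minimum of 20 reads, unweighted CpG means, shifted tiles, other limits of CpGs and level, capped coverage, another pseudocount, a quasi-binomial model, centred libraries, matched pairs as a block and leaving out each library. Differences are given with their sign, supplement or day 5 first.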

Additional observations from a re-analysis of the deposited data

Results flagged for a closer look

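The change from day 2 to day 5 over the 524 tiles was opposite with and without vitamin C. Day 5 minus day 2 was -2.64 points with vitamin C and -0.958 with both supplements, against 8.76 untreated and 10.9 with L-proline, a difference of means of -11.6 points. The difference of the means was not tested, and the test tile by tile called 0 tiles. In the same order, the sparser methylated tiles gave -2.18, -1.51, 7.22 and 7.01 points. All 50167 tiles tested gave -1.28, -0.779, 4.18 and 4.93, so the opposite signs are not particular to the 524 tiles.

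Chromosome X lies outside the choice of tiles, which was made on chromosomes 1 to 19. There, 4 of 149 tiles of at least 11 covered CpGs had a mean level of at least 20%. The tile at chrX:131076001-131077000, at the start of Timm8a1, averaged 22.3% with vitamin C and 32.9% without, and the tile at chrX:30526001-30527000 stood at 90.8% over the 8 libraries. Their levels are given as values only.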

How the results depend on the processing

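The number of tiles depends on the limits by construction: 84 with a minimum of 20 reads, 1702 with at least 8 CpGs, 56 with at least 20 CpGs and 885 at a level of 10% or more, against 524. The number called lower with vitamin C, 274, was 61 in the quasi-binomial model (2061 or 4.11% of all tiles), 1 with libraries centred to one median (205 or 0.409% of all tiles) and 27 of the 84 with a minimum of 20 reads, and ran from 46 to 316 when 1 library was left out. For 20 reads and for libraries left out, the share of all tiles called was not computed. The cause of the drop in the quasi-binomial model was not tested. The number called was 273 without the 7 tiles of over 100 reads per CpG, an alternative chosen after seeing the data. The day 5 minus day 2 gap in the vitamin C difference, -11.6 points, was -10.3 with 20 reads, -11.2 unweighted, -11.97 with shifted tiles, -10.9 with at least 20 CpGs and -10.2 at a level of 10% or more; the cause was not tested. With 20 reads, the dense tiles minus the sparser ones at equal level differed by 4.91 points (40 to 60%), 1.02 (60 to 80%) and 0.494 (80 to 100%) for vitamin C and by -2.85 (40 to 60%) for L-proline, on far fewer tiles, against -0.23, -0.83, 0.95 and 0.07. Unweighted, the vitamin C gap at 40 to 60% was 0.337. Of 38 vitamin C and L-proline differences of single tiles, 16 lost their call in the quasi-binomial model, 3 with a pseudocount of 0.5 and 3 with 20 reads, which could give 34. No mean difference over the 524 tiles changed sign. Centred libraries turned the log2 difference to 0.85 (chr2:174125001), 1.29 and 0.83 (both Grb10 tiles), 0.99 (Plagl1), 0.0257 (Slc25a31), 0.35 (Gm36388), 0.36 (Miip), 1.08 (Vmn2r29), 1.16 (Clcn4), 0.22 (Sult2b1), 0.0559 (Alpk3), 0.64 (Cib2), 0.40 (Sycp2l), 0.46 (Rgcc) and 0.15 (Afap1l2), by construction a shift of 1.45. Signs of uncalled imprinted tiles turned when 1 library was left out, from -2.64 to 4.87 points (Commd1, -0.0739 unweighted), -1.33 to 6.37 (chr2:174124001) and -5.13 to 0.254 (chr11:11925001). Calls of the interaction terms had no minimum difference to vary. With the 4 matched pairs of libraries as a block, an alternative added after seeing the data, 218 tiles were called lower with vitamin C (20.8% of all tiles), 0 for L-proline and 0 for day, and the Gm36388, Miip, Sycp2l and Afap1l2 tiles lost their call. The labels give no replicate numbers to pair on. Counts in each library limit a tile's level, and a lone library is assumed to vary like the others.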
